A study of Mus musculus with 15 samples.

Results

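The neurotrophins BDNF and NT-3, the growth factor GDNF and the receptors that bind them were followed in the mouse auditory nerve after loud noise. The members were all probe sets that the platform annotation pairs with the symbols Bdnf, Ntf3, Gdnf, Ntrk2, Ntrk3, Ngfr, Gfra1 and Ret. This gave 27 probe sets of 7 of the 8 genes, of 45037 probe sets tested in all. Ntrk2 and Ntrk3 had 8 each, Ngfr and Gfra1 had 3 each, Bdnf and Ret had 2 each and Gdnf had 1. Ntf3 was not analysed here, because the annotation paired no probe set with it.

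All animals were CBA/CaJ mice, and all were bred in a low-noise colony. Noise at 106 dB SPL, an octave band between 8 and 16 kHz, lasted 2 h. Mice were taken immediately, 1 day, 7 days or 14 days after it and were set against unexposed controls, with 3 mice and 3 arrays in each of the 5 groups. The exposed mice were 5 to 12 weeks old and the controls are labelled adult. Each array held the nerve tissue of both ears of 1 animal. The sample was the modiolus, the central core of the cochlea, after dissection of the bony shell, the lateral wall and much of the sensory epithelium, so that it held neurons, glia and other cells of the core together. All controls were female and all mice at 1 day were male, while each of the other groups held both sexes.

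Neurotrophins are secreted proteins that keep sensory neurons alive and maintain their synapses. BDNF acts through TrkB, the product of Ntrk2, and NT-3 acts through TrkC, the product of Ntrk3. These Trk receptors are tyrosine kinases, and each gene also makes truncated forms that lack the kinase. Ngfr encodes the pan-neurotrophin receptor of the tumour necrosis factor receptor family, which binds all neurotrophins and their precursors and is abundant on Schwann cells that have lost contact with axons. GDNF binds the lipid-anchored coreceptor GFRA1, and the complex activates the receptor tyrosine kinase RET. In the cochlea, hair cells and supporting cells are known sources of BDNF and NT-3, and the spiral ganglion neurons, whose axons form the auditory nerve, carry TrkB and TrkC.

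The deposited values are log2 intensities, and array medians lay between 5.87 and 5.92. The brightest neuronal and myelin markers had control means of 13.43 for Nefl, 13.43 for Snap25 and 13.92 for Mbp, which does not measure the share of any cell type. Fibroblast and meninges markers were bright too, with sums of 50450 to 54468 in controls. Neutrophil marker sums were uneven among the controls, from 371 to 4327. Summed levels of 5 marker lists lay apart from the controls at 1 day, those of macrophages above them and those of spiral ganglion neurons, Schwann cells, fibroblasts with meninges, and bone below them, and they stand beside the results they touch. In this mixed tissue, fewer cells of a type and less RNA per cell cannot be told apart. Levels of different probe sets are not comparable, so each value below is set only against other arrays of the same probe set, and differences of dim probe sets are understated. Every fold change is a difference of group means on the log2 scale with the standard error of a limma fit over all 15 arrays, and a probe set counted as called where its p-value, adjusted by Benjamini-Hochberg over all 45037 probe sets, was under 0.05. With 3 animals a group, p-values measure the spread between these animals.

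No probe set of the 7 genes was called against the controls at any time. The share called among all probe sets was 0.413% immediately, 1.14% at 1 day, 0.0311% at 7 days and 0% at 14 days. The moderated F test for any difference among the 5 groups also called 0 of 27, where 4.07% of all probe sets were called, and the smallest adjusted p among the members was 0.0733, for an Ntrk3 probe set. At an unadjusted p under 0.05 the F test counted 6 of 27 (22.2%, against 20.0%). At an unadjusted p under 0.05, limma counted 5 of the 27 immediately (18.5%, against 12.9% of all probe sets), 8 at 1 day (29.6%, against 13.0%), 4 at 7 days (14.8%, against 9.92%) and 2 at 14 days (7.41%, against 7.37%). Probe sets of 1 gene share a target, and several share their source sequence, so these are not independent counts. The median log2 fold change of the members was -0.06 immediately, -0.11 at 1 day, 0.01 at 7 days and 0.01 at 14 days, beside -0.02, -0.01, 0.01 and 0.00 over all probe sets.

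The intervals bound the change in measured intensity, and for dim probe sets, where intensity is compressed, they do not bound the change in RNA. The 95% confidence interval of the fold change against control lay within 1.5-fold in either direction for 22 of the 27 probe sets immediately, for 20 at 1 day, for 21 at 7 days and for 23 at 14 days. It lay within 2-fold for 25 of 27 at each time. The same 2 probe sets fell outside 2-fold at all 4 times, Bdnf 1422168_a_at and Ntrk2 1446712_at. For Bdnf 1422168_a_at the interval immediately after noise ran from 0.845-fold to 3.38-fold, so a rise of that size or no change at all could not be told from these arrays.

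**Figure D1:**
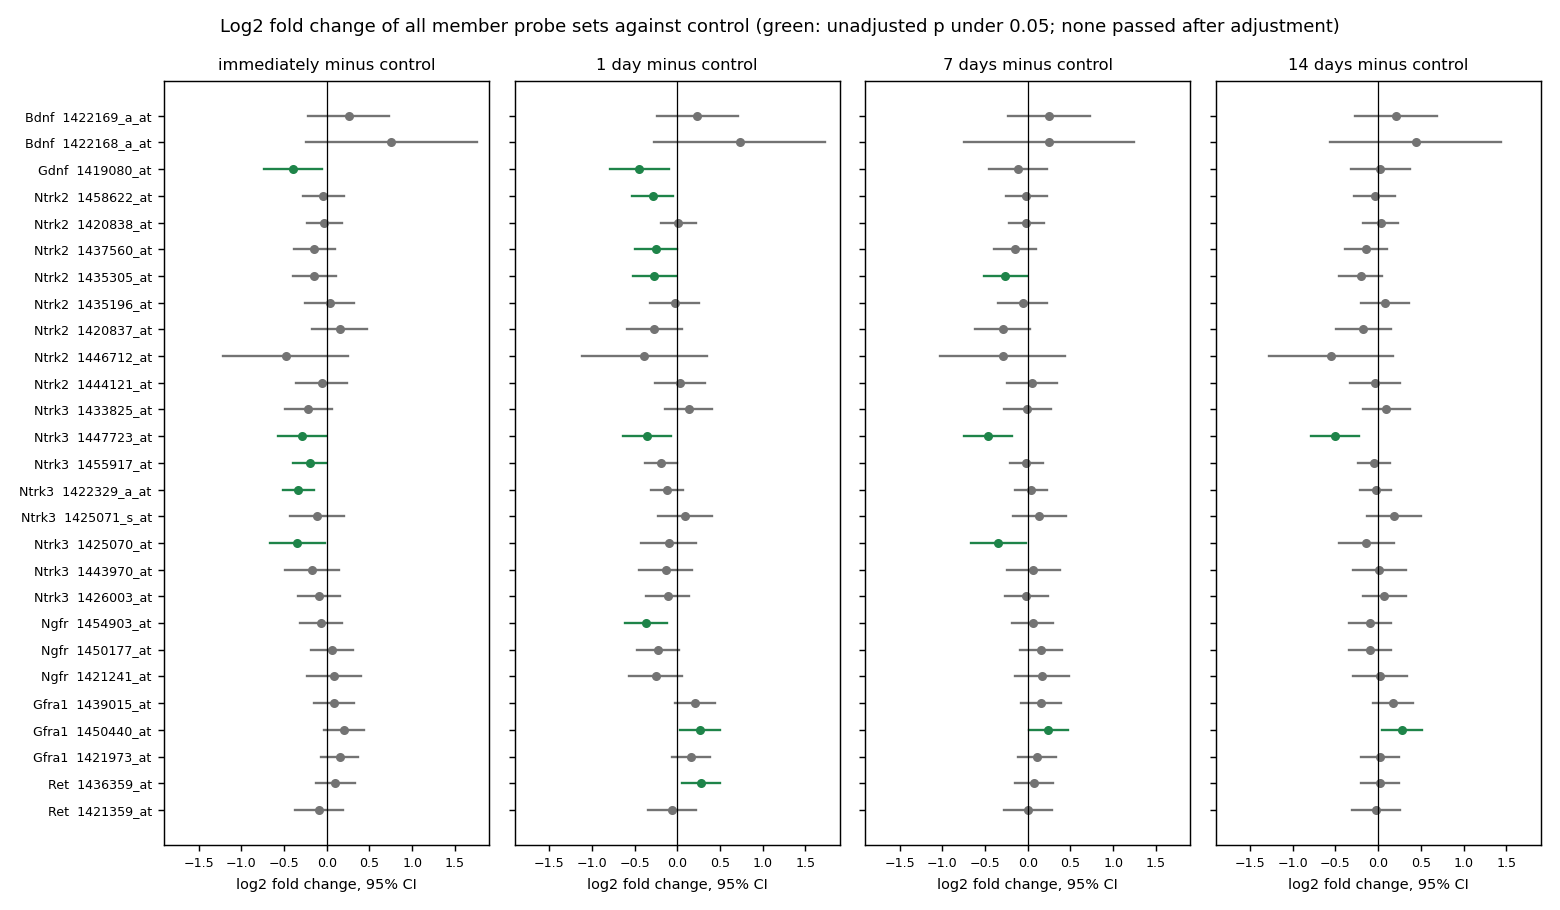
Log2 fold change (x axis) of each of the 27 probe sets (rows) for noise minus control at the 4 times (panels), with bars for the 95% confidence interval from limma. Green marks an unadjusted p under 0.05, which 5, 8, 4 and 2 probe sets had at the 4 times in order, and none of the 27 passed after adjustment over all probe sets.

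Among the ligands, Bdnf had the widest spread between animals. Bdnf 1422168_a_at measured 4.18, 4.78 and 4.69 in controls, 5.28, 4.69 and 5.95 immediately, 4.92, 5.89 and 5.03 at 1 day, 3.87, 4.37 and 6.16 at 7 days and 4.43, 4.91 and 5.63 at 14 days. Its mean was above control at all 4 times, by 0.76, 0.73, 0.25 and 0.44 with a standard error of 0.47 each, and no difference passed (adjusted p 0.539 to 0.908). The 7-day group alone spanned the lowest and the highest of the 15 values.

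Bdnf 1422169_a_at, which comes from the same source sequence, measured 5.21, 5.55 and 5.42 in controls, 5.34, 5.61 and 6.0 immediately, 5.59, 5.66 and 5.63 at 1 day, 4.98, 5.78 and 6.17 at 7 days and 5.53, 5.51 and 5.77 at 14 days. Its means were above control by 0.26, 0.23, 0.25 and 0.21 (SE 0.22 each, adjusted p 0.689 to 0.908). At 1 day all arrays of both Bdnf probe sets lay above all controls, and at the other times the groups overlapped. That placing was met by 7.9% of all probe sets at 1 day. Summed hair cell marker intensity, over 10 of 12 listed genes, was 1501 to 2297 at 1 day and 1300 to 1560 in controls. Within the 7-day group it was 1991 in replicate 3, which had the highest value of both Bdnf probe sets. Replicates 1 and 2 of that group had 1479 and 1373. At 1 day the highest sum, 2297, was that of replicate 1, which had the lowest value of its group in both Bdnf probe sets. Immediately after noise the highest sum, 1759, was that of replicate 2, which had the lowest Bdnf 1422168_a_at value of its group. At 14 days the highest sum, 2075, was that of replicate 3, which had the highest value of its group in both Bdnf probe sets. In controls the highest sum, 1560, was that of replicate 1, which had the lowest value of its group in both. Summed supporting cell markers, over 9 of 10 listed genes, were 10869 to 12655 at 1 day and 11531 to 12405 in controls. The part of either marker sum in the Bdnf values was not tested.

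Gdnf 1419080_at ran the other way. It measured 4.65, 4.5 and 4.84 immediately after noise, against 5.29, 5.01 and 4.88 in controls, so the groups did not overlap. At 1 day the values were 4.89, 4.34 and 4.62, and a single array reached the lowest control. The log2 fold change was -0.40 ± 0.16 immediately and -0.44 ± 0.16 at 1 day (adjusted p 0.308 and 0.229). By 7 days the values were 5.11, 4.66 and 5.07, and by 14 days 5.14, 4.92 and 5.20, within or near the control range, and the differences were -0.11 and 0.03. From the lowest, the Gdnf means ran 1 day (4.62 ± 0.28), immediately (4.66 ± 0.17), 7 days (4.95 ± 0.25), control (5.06 ± 0.21) and 14 days (5.09 ± 0.15; SD, n = 3 each), and the arrays of neighbouring groups overlapped. Of all probe sets, 10.3% had every immediate array below every control.

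**Figure D2:**
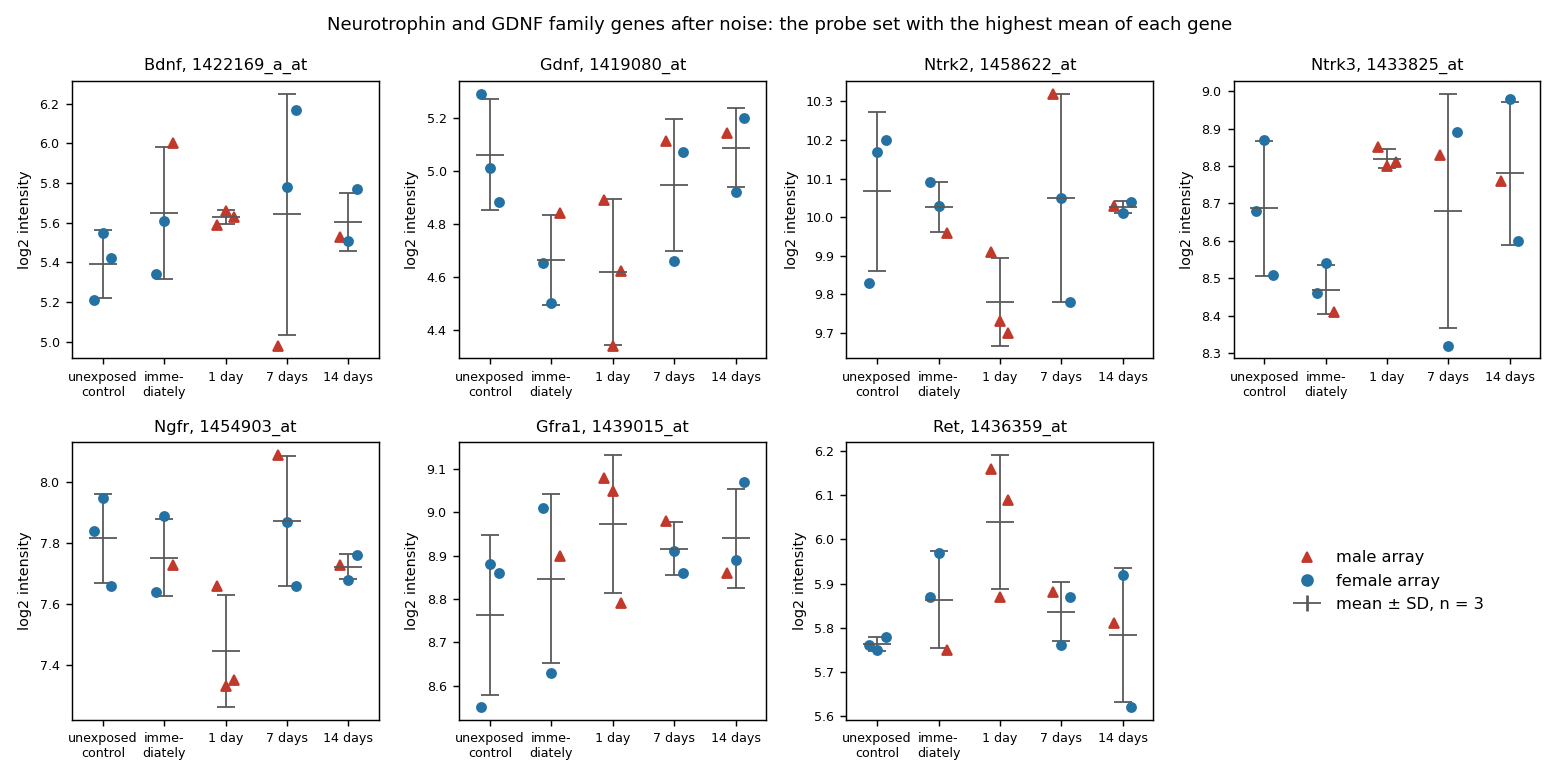
Log2 intensity (y axis, range differs between panels) on each array for the probe set with the highest mean of each of the 7 genes, in controls and at the 4 times after noise (x axis), with mean ± SD of 3 arrays; triangles are males and circles females. Ngfr 1454903_at is lowest at 1 day, at 7.33 to 7.66, Gdnf is low immediately and at 1 day, and no gene departs from the controls beyond the adjusted threshold.

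Among the receptors, Ngfr gave the only call of the 27 probe sets, and it lay between 2 noise groups. Ngfr 1454903_at measured 8.09, 7.87 and 7.66 at 7 days, against 7.66, 7.33 and 7.35 at 1 day. The highest 1-day array equalled the lowest 7-day array. The log2 fold change of 7 days over 1 day was 0.43 ± 0.12 (limma, adjusted p 0.0453). One call in 27 is 3.7%, beside 4.66% of all probe sets in that comparison, so the count is near the background.

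The other Ngfr probe sets had the same order. Ngfr 1450177_at measured 6.97, 6.82 and 6.70 at 7 days, against 6.64, 6.30 and 6.42 at 1 day, with no overlap (0.38 ± 0.12, adjusted p 0.0772). Of all probe sets, 9.55% had every 7-day array above every 1-day array. Ngfr 1421241_at, of the same source sequence as 1450177_at, measured 5.11, 5.38 and 5.17 at 7 days, against 5.20, 4.56 and 4.63 at 1 day (0.42 ± 0.15, adjusted p 0.117). In all 3 probe sets, 1-day replicate 1 was the highest array of its group.

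Against the controls, the 3 Ngfr probe sets averaged lower at 1 day by 0.37, 0.22 and 0.25, and none passed (adjusted p 0.145, 0.441 and 0.512). Ngfr 1454903_at measured 7.84, 7.95 and 7.66 in controls, 7.64, 7.89 and 7.73 immediately and 7.73, 7.68 and 7.76 at 14 days. In order of group means from the lowest, Ngfr 1454903_at ran 1 day (7.45 ± 0.19), 14 days (7.72 ± 0.04), immediately (7.75 ± 0.13), control (7.82 ± 0.15) and 7 days (7.87 ± 0.21; SD, n = 3 each), and the arrays of neighbouring groups above the 1-day group overlapped.

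The Ngfr call was close to the threshold. It ended with sex as a term (0.49, adjusted p 0.0831), without the mean-variance trend (0.0671), with array weights (0.40, adjusted p 0.104) and with only the 2 groups in the fit (0.178). With 1 array left out, it passed without control replicate 3 (adjusted p 0.046), 1-day replicate 1 (0.0209) or 7-day replicate 3 (0.0196), and it did not pass without 1-day replicate 2 (0.197) or 3 (0.137), without 7-day replicate 1 (0.134) or 2 (0.105), or without any of the other 8 arrays, where the adjusted p was 0.0501 to 0.06. Its fold change stayed between 0.32 and 0.53 in all of these. Within males, the 1 male at 7 days measured 8.09, against 7.66, 7.33 and 7.35 in the 3 males at 1 day, which gives no test. Summed spiral ganglion neuron markers were 50782 to 56606 at 7 days, against 47340 to 48682 at 1 day, summed Schwann cell and satellite glia markers 41085 to 41670 against 38008 to 40286, and summed macrophage markers 1869 to 2822 against 3435 to 3716. Their part in the Ngfr difference was not tested.

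**Figure D3:**
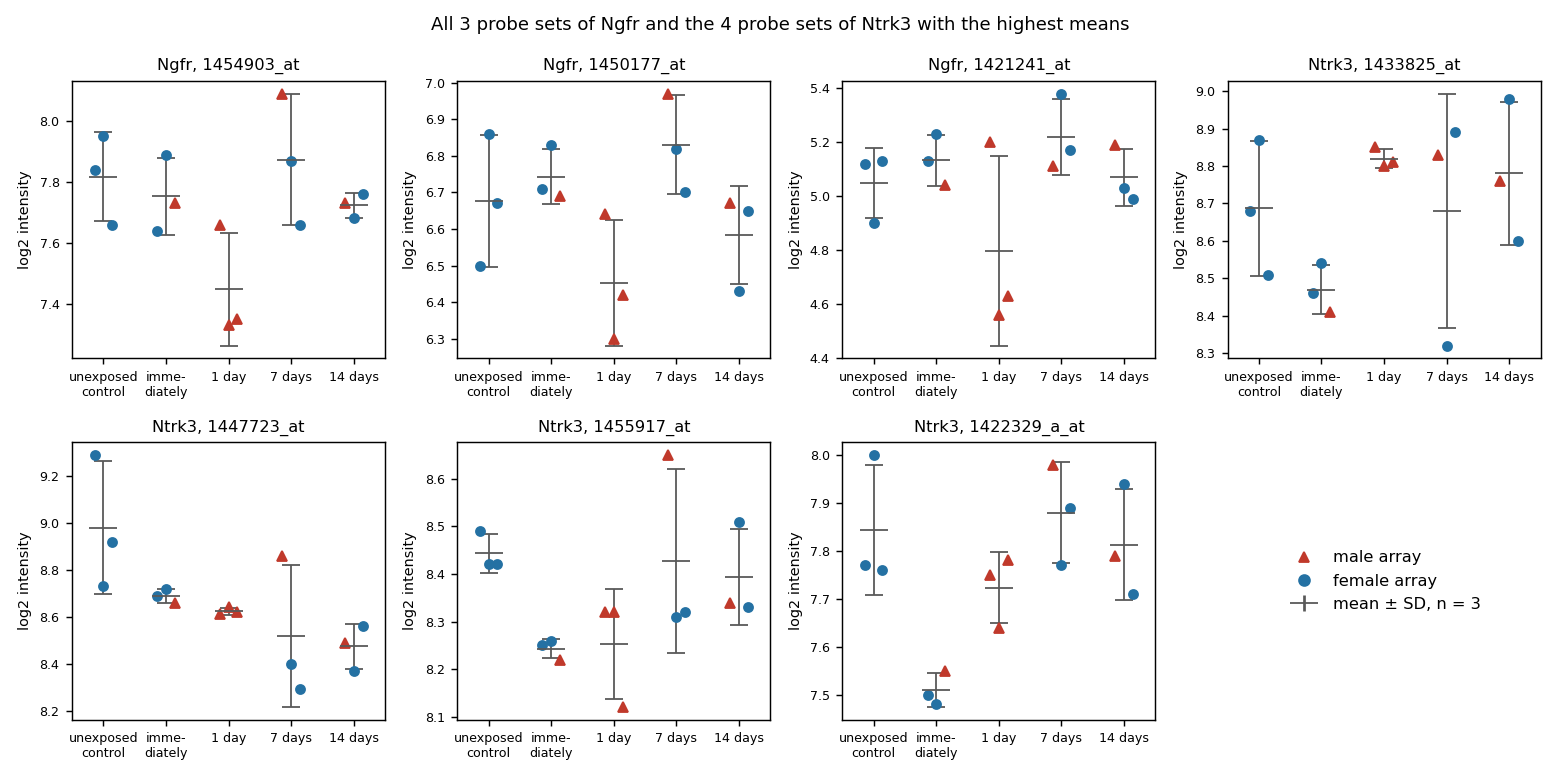
Log2 intensity (y axis, range differs between panels) on each array for the 3 Ngfr probe sets and the 4 Ntrk3 probe sets with the highest means, by group (x axis), with mean ± SD of 3 arrays. All Ngfr probe sets have their lowest mean at 1 day; Ntrk3 1422329_a_at is lowest immediately after noise, at 7.48 to 7.55, while Ntrk3 1447723_at is low at all 4 times.

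Ntrk3, the TrkC receptor gene, averaged lower immediately after noise in all 8 of its probe sets, by 0.09 to 0.34 on the log2 scale, and none was called (adjusted p 0.108 to 0.807). Of all probe sets, 54.9% were below 0 in that comparison. In 4 of the 8, all arrays lay below all controls (10.3% of all probe sets did), and these 4 had an unadjusted p under 0.05 in limma (12.9% of all probe sets did). The smallest p belonged to Ntrk3 1422329_a_at, which measured 7.5, 7.48 and 7.55 immediately, against 7.77, 8.00 and 7.76 in controls (-0.33 ± 0.09, adjusted p 0.108).

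The probe set then measured 7.75, 7.64 and 7.78 at 1 day, 7.98, 7.77 and 7.89 at 7 days and 7.79, 7.94 and 7.71 at 14 days. At 1 day 1 array reached the control range, and at 7 and 14 days the groups overlapped in most arrays. Ntrk3 1422329_a_at passed immediately in 1 of 26 alternatives, with array weights (adjusted p 0.047, and 0.0484 in the F test). Its F test also passed after quantile normalization (0.0448) and with a common 75th percentile (0.041).

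The Ntrk3 probe sets disagreed after the first time point. Ntrk3 1447723_at measured 9.29, 8.73 and 8.92 in controls, 8.69, 8.72 and 8.66 immediately, 8.61, 8.64 and 8.62 at 1 day, 8.86, 8.40 and 8.29 at 7 days and 8.49, 8.37 and 8.56 at 14 days. It averaged below control by 0.29, 0.36, 0.46 and 0.51 in time order (SE 0.13 each), and no difference passed (adjusted p 0.372, 0.241, 0.275 and 0.389). Except at 7 days, all noise arrays lay below all controls, as 9.17% of all probe sets did at 1 day and 6.26% at 14 days. Leaving out 7-day replicate 1 brought the 7-day difference to -0.64 (adjusted p 0.038) and the F test to an adjusted p of 0.021. Control replicate 1, at 9.29, was the highest of all arrays, and the differences at all times share these controls. Without control replicate 1 the differences shrank to -0.135, -0.20, -0.31 and -0.35 in time order, and none passed.

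Ntrk3 1433825_at, the probe set of the gene with the highest mean, did not follow it. It measured 8.46, 8.54 and 8.41 immediately, 8.85, 8.80 and 8.81 at 1 day, 8.83, 8.32 and 8.89 at 7 days and 8.76, 8.98 and 8.60 at 14 days, against 8.68, 8.87 and 8.51 in controls. The differences from control were -0.22, 0.13, -0.01 and 0.09 (SE 0.13, adjusted p 0.521 to 0.992). From the lowest, its means ran immediately (8.47 ± 0.07), 7 days (8.68 ± 0.31), control (8.69 ± 0.18), 14 days (8.78 ± 0.19) and 1 day (8.82 ± 0.03; SD, n = 3 each), and at 1 day the value was above that of the immediate group by 0.35 ± 0.13 (adjusted p 0.153). Ntrk3 1455917_at was lower immediately by 0.20 ± 0.09, with 8.25, 8.26 and 8.22 against 8.49, 8.42 and 8.42 in controls (adjusted p 0.361), and by 0.19 at 1 day, and it was within 0.05 of control at 7 and 14 days. Ntrk3 1425070_at was lower than control by 0.34 both immediately and at 7 days (SE 0.15, adjusted p 0.354 and 0.478), with no overlap at the first of these times, where it measured 5.21, 5.17 and 5.58, against 5.60, 5.79 and 5.60. Ntrk3 1425071_s_at differed from control by -0.12, 0.09, 0.14 and 0.19 in time order (SE 0.15 each, limma adjusted p 0.801 to 0.871). For Ntrk3 1443970_at the differences were -0.17, -0.14, 0.07 and 0.01 (SE 0.15 each, limma adjusted p 0.686 to 0.995).

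Ntrk2, the TrkB receptor gene, averaged lowest against control at 1 day, where the median log2 fold change of its 8 probe sets was -0.26 and none was called; the medians at the other 3 times were -0.05 immediately, -0.10 at 7 days and -0.09 at 14 days. Its brightest, Ntrk2 1458622_at, measured 10.09, 10.03 and 9.96 immediately, 9.91, 9.73 and 9.70 at 1 day, 10.32, 10.05 and 9.78 at 7 days and 10.03, 10.01 and 10.04 at 14 days, against 9.83, 10.17 and 10.20 in controls. The 1-day mean was 0.29 ± 0.11 below control, with overlap (adjusted p 0.271), and the other 3 differences were -0.04, -0.02 and -0.04. From the lowest, the group means ran 1 day (9.78 ± 0.11), 14 days (10.03 ± 0.02) level with immediately (10.03 ± 0.07), 7 days (10.05 ± 0.27) and control (10.07 ± 0.21; SD, n = 3 each), and the arrays of neighbouring groups above the 1-day group overlapped.

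Of the 8 Ntrk2 probe sets, 6 averaged below control immediately, 6 at 1 day, 7 at 7 days and 6 at 14 days, beside 54.9%, 52.3%, 47.3% and 48.1% of all probe sets below 0 at these times. At 1 day 3 of them had an unadjusted p under 0.05 in limma, as 13.0% of all probe sets did, and the difference of Ntrk2 1437560_at was -0.25 and that of Ntrk2 1435305_at -0.27 (adjusted p 0.367 and 0.340). Ntrk2 1420838_at, with values between 8.70 and 9.10 on all 15 arrays, differed from control by at most 0.03 at any time. For Ntrk2 1435196_at the differences were 0.03, -0.03, -0.06 and 0.08 in time order (limma, adjusted p 0.929 to 0.969). Ntrk2 1446712_at was uneven within groups, with 5.85, 6.07 and 5.15 immediately, 6.36, 5.65 and 5.35 at 1 day, 6.58, 5.43 and 5.62 at 7 days and 6.37, 5.40 and 5.08 at 14 days, against 5.99, 6.24 and 6.28 in controls (adjusted p 0.605 to 0.833). Ntrk2 1444121_at and Ntrk3 1426003_at were in the lowest 25% of all probe sets by mean.

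Both parts of the GDNF receptor were somewhat higher at 1 day in their brighter probe sets, without passing. Ret 1436359_at, for the kinase subunit, measured 6.16, 5.87 and 6.09 at 1 day, against 5.76, 5.75 and 5.78 in controls, with no overlap (0.28 ± 0.11, adjusted p 0.256). The same probe set measured 5.87, 5.97 and 5.75 immediately, 5.88, 5.76 and 5.87 at 7 days and 5.81, 5.92 and 5.62 at 14 days, and differed from control by 0.02 to 0.10. From the lowest, its means ran control, 14 days, 7 days, immediately and 1 day, and no neighbours in that order were called apart in the comparisons made. Ret 1421359_at differed from control by -0.09 to 0.01 and did not follow the other Ret probe set at 1 day, where it measured 4.90, 4.61 and 5.01, against 5.00, 4.88 and 4.83 in controls.

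Gfra1, for the coreceptor, averaged above control in all 3 probe sets at all 4 times. Gfra1 1450440_at measured 7.87, 7.61 and 7.64 immediately, 7.78, 7.75 and 7.79 at 1 day, 7.74, 7.65 and 7.85 at 7 days and 7.68, 7.82 and 7.84 at 14 days, against 7.23, 7.74 and 7.54 in controls. The differences were 0.20, 0.27, 0.24 and 0.28 (SE 0.11 each), and the adjusted p was 0.463, 0.290, 0.488 and 0.604. Control replicate 1 was the lowest of the 15 arrays in all 3 Gfra1 probe sets, and the 4 differences share these controls. Gfra1 1439015_at measured 9.01, 8.63 and 8.90 immediately, 9.08, 9.05 and 8.79 at 1 day, 8.98, 8.91 and 8.86 at 7 days and 8.86, 8.89 and 9.07 at 14 days, against 8.55, 8.88 and 8.86 in controls, and the differences were 0.08, 0.21, 0.15 and 0.18 (SE 0.11 each, adjusted p 0.442 to 0.808). From the lowest, the means of Gfra1 1439015_at ran control, immediately, 7 days, 14 days and 1 day, and the arrays of neighbouring groups overlapped. Gfra1 1421973_at differed from control by 0.15, 0.16, 0.11 and 0.02.

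Between consecutive times, no probe set of the 7 genes was called for 1 day against immediately (3.88% of all probe sets were) or for 14 days against 7 days (0%), where limma counted 7 (25.9%, against 17.7% of all probe sets) and 1 (3.7%, against 2.72%) of the 27 at an unadjusted p under 0.05. For 7 days against 1 day it counted 4 (14.8%, against 19.0%), of which 3 were of Ngfr. All 3 Ngfr probe sets were lower at 1 day than immediately, by 0.29 to 0.34 (adjusted p 0.161 to 0.240). Ntrk2 1420837_at measured 5.80, 5.74 and 5.77 at 1 day, against 6.18, 6.22 and 6.17 immediately (-0.42 ± 0.15, adjusted p 0.143), with no overlap. Of all probe sets, 10.9% had every 1-day array below every immediate array. Ntrk2 1420837_at passed without 7-day replicate 2 (adjusted p 0.0329) and with only the 2 groups in the fit (0.0372), and in no other alternative. Gdnf was higher at 7 days than at 1 day by 0.33 ± 0.16 (adjusted p 0.285).

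The genes around the 7 were read from lists of further ligands, receptors, processing enzymes, adaptors and induced genes, each gene by its probe set with the highest mean. The ligand, receptor, processing and adaptor lists held no call against control. Of other ligands of the neurotrophin and GDNF families, 4 of 6 could be read, and 0 were called at any time; the same held for 15 of 17 other receptors and coreceptors, 12 of 14 genes of proneurotrophin processing and 23 of 27 receptor adaptors and signal relay genes. Their median log2 fold changes against control lay between -0.10 and 0.08 at the 4 times, while single genes ran from -0.52 to 0.37. An unadjusted p under 0.05 was reached in limma immediately by 1 of 4 ligands, 3 of 15 receptors, 1 of 12 processing genes and 5 of 23 adaptors. The counts in the same order were 1, 1, 2 and 3 at 1 day, 2, 0, 1 and 4 at 7 days and 1, 2, 0 and 0 at 14 days. Of all probe sets, 12.9%, 13.0%, 9.92% and 7.37% reached it at the 4 times in order.

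Nrtn, which encodes the GDNF relative neurturin, lay just above the threshold immediately after noise and is singled out after its values were seen. It averaged 7.08 ± 0.09 immediately and 7.53 ± 0.08 in controls (SD, n = 3 each), a log2 fold change of -0.45 ± 0.09 (adjusted p 0.0501). Nrtn passed in 12 of 27 alternatives, among them sex as a term (-0.50, adjusted p 0.0327). Its later differences were -0.21, -0.23 and -0.28, and their adjusted p was 0.355 to 0.541.

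Genes known to be induced by neurotrophins or GDNF gave the largest changes of the 7 lists, and many other stimuli are known to induce them too. The lists were chosen with earlier results of these data known, so their ranking is a description only. Of the 20 induced genes, 3 rose immediately, 2 at 1 day and 0 at 7 or 14 days, and none fell. Their median log2 fold change was 0.46, 0.18, 0.11 and 0.13 in time order. Fos, an immediate early transcription factor gene, measured 9.72, 9.19 and 10.71 immediately, against 6.54, 7.24 and 6.97 in controls, and the groups lay far apart (2.96 ± 0.41, adjusted p 0.00326). Junb, its dimer partner, rose by 2.30 ± 0.41 (adjusted p 0.0198), and Dusp5, a phosphatase that acts on ERK, by 0.71 ± 0.15 (adjusted p 0.0492).

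At 1 day Fos was still higher, by 1.76 ± 0.41 (adjusted p 0.0492). Vgf, which encodes a secreted neuropeptide precursor that neurotrophins induce, measured 7.58, 7.42 and 7.51 at 1 day, against 4.68, 4.30 and 4.81 in controls, and this was the largest change of any listed gene at that time (2.91 ± 0.33, adjusted p 0.000707). Vgf was above its immediate level by 2.29 ± 0.33, and at 7 days it had fallen relative to 1 day by 1.63 ± 0.33 (adjusted p 0.00136 and 0.0103), where it measured 5.19, 6.61 and 5.81.

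**Figure D4:**
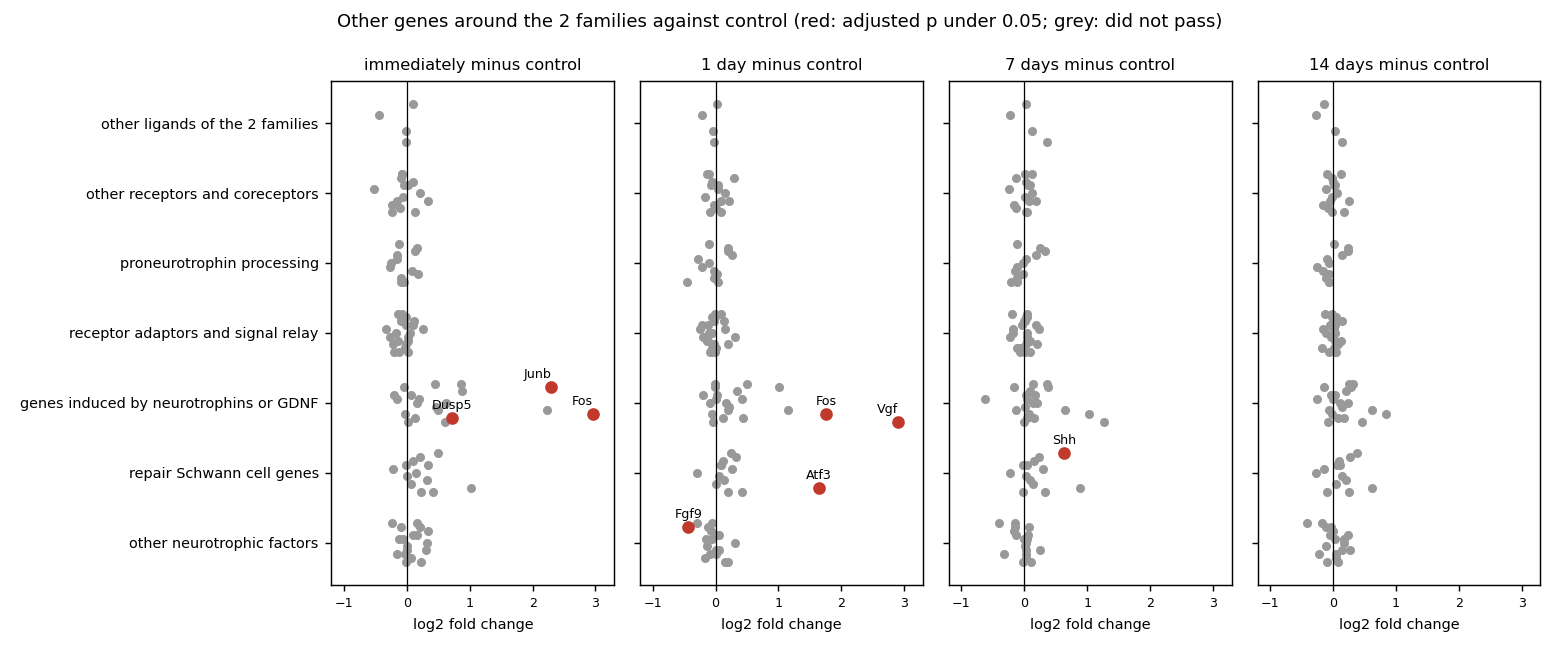
Log2 fold change (x axis) of single genes (points) in 7 lists around the 2 families (rows), for noise minus control at the 4 times (panels). Red marks an adjusted p under 0.05 over all probe sets and carries the gene's name: Fos, Junb and Dusp5 immediately, Vgf, Fos, Atf3 and Fgf9 at 1 day and Shh at 7 days.

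Repair Schwann cell genes and other neurotrophic factors held few calls. Atf3, an injury-induced transcription factor gene, rose at 1 day by 1.64 ± 0.26 (adjusted p 0.00636), the only call among 13 repair genes read at that time, whose median was 0.13. Shh, which encodes the ligand Sonic hedgehog and is made by repair Schwann cells after nerve injury, rose at 7 days by 0.64 ± 0.10 (adjusted p 0.04997, just under the threshold), the only call of 13. Neither gene was called immediately, where the smallest adjusted p of the 13 genes was 0.0503 (limma). Shh then measured 8.41, 8.23 and 8.48, against 7.79, 7.78 and 8.07 in controls. Atf3 then measured 7.78, 7.43 and 8.18, against 6.51, 7.03 and 6.78. Both lay above all controls at that time, as 8.23% of all probe sets did. Fgf9 fell by 0.43 ± 0.09 at 1 day (adjusted p 0.0311), the only call among 18 other neurotrophic factors, whose median was -0.05.

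Some of these calls ended with sex as a term or with 1 array left out. With sex as a term, Fos at 1 day (adjusted p 0.157), Fgf9 (0.194), Atf3 (0.0673) and Shh (0.0575) no longer passed, while Junb (0.0444) and Dusp5 (0.046) did. The fold changes of the 4 that no longer passed were then 2.045, -0.425, 1.79 and 0.66 in that order. All controls were female and all 1-day mice male, and the part of sex in these differences was not tested. Leaving out any 1 of the 15 arrays did not end the calls of Vgf and Atf3 at 1 day or of Fos immediately. Junb did not pass without any 1 control or without immediate replicate 1 or 3 (adjusted p up to 0.124), and Fgf9 did not pass when 1-day replicate 1 or 2 or control replicate 2 or 3 was left out (up to 0.153). Fos at 1 day did not pass without any 1 control, any 1 of the 1-day arrays, immediate replicate 1, 7-day replicate 2 or 14-day replicate 2 (up to 0.217). Dusp5 passed only without 1-day replicate 2, 7-day replicate 1 or 7-day replicate 2 (up to 0.167 otherwise), and Shh only without control replicate 3 or 7-day replicate 1 (up to 0.214 otherwise).

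Of the 15 other receptors and coreceptors, 1 was called higher and 1 lower at 7 days against 1 day, where 4.66% of all probe sets were called. These genes and the adaptors below were named after their values were seen. Sort1, for sortilin, which pairs with the pan-neurotrophin receptor to bind proneurotrophins, was higher at 7 days by 0.23 ± 0.06 (adjusted p 0.037), and Sorcs3, a relative of sortilin, was lower by 0.43 ± 0.11 (adjusted p 0.035). With sex as a term neither passed (0.0958 and 0.141). Sort1 also did not pass without control replicate 3, any 1 of the 1-day arrays, 7-day replicate 1 or 2 or 14-day replicate 2 (adjusted p up to 0.119), and Sorcs3 did not pass without any 1 of the 1-day arrays or 7-day replicate 2 or 3 (up to 0.163).

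Among the adaptors, 1 of 23 was called higher and 1 lower at 7 days against 1 day, where 4.66% of all probe sets were called. Sos1, an exchange factor that activates RAS, averaged 8.98 ± 0.04 at 7 days and 8.58 ± 0.04 at 1 day (0.40 ± 0.07, adjusted p 0.00483). Traf6, an adaptor that binds the pan-neurotrophin receptor and also serves innate immune receptors, averaged 6.88 ± 0.11 at 7 days and 7.42 ± 0.17 at 1 day (-0.54 ± 0.10, adjusted p 0.00585; SD, n = 3 each). In that comparison both stayed called with sex as a term (0.0329 and 0.0419) and without any 1 array. At 1 day against immediately, 2 of 23 adaptors were called higher and 1 lower, where 3.88% of all probe sets were called. Traf6 was higher by 0.57 ± 0.10 (adjusted p 0.00454) and Shc4, an adaptor of the SHC family, by 0.41 ± 0.09 (0.0205), while Sos1 was lower by 0.31 ± 0.07 (0.0192). With sex as a term, Traf6 passed (0.0234) and Shc4 (0.0646) and Sos1 (0.0656) did not. Traf6 passed without any 1 array; Shc4 did not pass without immediate replicate 1 or 2 or 1-day replicate 2 or 3 (adjusted p up to 0.0815), nor Sos1 without immediate replicate 3 or 1-day replicate 2 or 3 (up to 0.1004). Macrophage markers moved over the same interval, with 7 of 12 called higher and 0 lower at 1 day against control and 8 of 12 called lower at 7 days against 1 day; Cd68 averaged 7.86 ± 0.03 at 1 day and 5.91 ± 0.25 in controls. The part of the macrophage markers in the Traf6, Atf3 and Vgf differences was not tested.

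The summed markers of spiral ganglion neurons and Schwann cells, which are known to carry these receptors, had their lowest values at 1 day. Spiral ganglion neuron markers summed to 54911 to 56609 immediately, 47340 to 48682 at 1 day, 50782 to 56606 at 7 days and 52573 to 53980 at 14 days, against 53393 to 55253 in controls, as linear intensity over all 13 listed genes. At 1 day 0 of 13 were called higher and 1 lower than control. Schwann cell and satellite glia markers summed to 38008 to 40286 at 1 day, against 40737 to 42926 in controls, over 8 of 11 listed genes, with 0 called higher and 1 lower. At 1 day both sums were below every control. The means of all 3 Ngfr, of 6 of 8 Ntrk2 and of 6 of 8 Ntrk3 probe sets were then below the control means, as were 52.3% of all probe sets. The means of all 3 Gfra1 probe sets and of Ret 1436359_at were above the control means at 1 day, by 0.16 to 0.27 for Gfra1 and by 0.28 for Ret. Immediately after noise neither sum lay below the controls. At that time 1 of 3 Ngfr, 6 of 8 Ntrk2 and all 8 Ntrk3 probe sets averaged below control, as did 54.9% of all probe sets. Fibroblast and meninges markers summed to 44157 to 47003 at 1 day, against 50450 to 54468 in controls, with 0 of 9 called higher and 1 lower. Bone markers, 6 of 8 listed genes, summed to 2330 to 3235 at 1 day and 2753 to 3570 at 14 days, against 4092 to 7271 in controls, with 0 called higher and 1 lower at 1 day. The part of these marker levels in the receptor values was not tested.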

How the data were processed

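Expression in mouse auditory nerve was measured on Affymetrix 3' arrays, 15 arrays of 15 animals in 5 groups of 3. The deposited values are log2 intensities per probe set, already normalized by the authors; the submitters' processing notes name Affymetrix Expression Console, RMA and MAS5, without saying which gave the values (not given in the sources used here). No further normalization was done. Probe sets were named from the platform annotation, which pairs 34945 with 1 symbol, 932 with several and 9160 with none; no source used here gives its genome build, and coordinates are left out. The 64 control probe sets were left out and no filter on low values was used.

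A single limma model (version 3.58.1, R 4.3.3; lmFit and trended eBayes) took all 45037 probe sets and the 15 arrays together, with 7 contrasts and a moderated F test, two-sided, adjusted by Benjamini-Hochberg within each contrast. An exact permutation test of 3 against 3 arrays cannot go below 0.1 and was not used. The functions were tested on simulated data. All probe sets of the members are named, and of each list up to 3 called genes per contrast against control; other genes are marked where named. The members and the 17 lists, of 217 memberships (196 with a probe set), were chosen with earlier results of these data known. Genes of like pattern would have been named only for a member that passed the F test, and none did. Alternatives were sex as a term, female arrays only, the replicate block, filters, eBayes settings, array weights, the 2 groups alone, 2 normalizations and each array left out.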

Additional observations from a re-analysis of the deposited data

Results flagged for a closer look

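The effect of noise on Ngfr 1454903_at, the pan-neurotrophin receptor, differed between 2 times in the fit of all arrays, and the call was not stable. Against control it was 0.06 at 7 days and -0.37 at 1 day, and neither passed by itself (limma, adjusted p 0.914 and 0.145). The test of the difference is that of 7 days over 1 day, at 0.43 (adjusted p 0.0453). It passed in 10 of 26 alternatives and ended, among others, with sex as a term (0.49, adjusted p 0.0831), where all 1-day mice were male and all controls female. It was the only one of the 27 probe sets with a called difference between noise groups.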

How the results depend on the processing

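The counts of called probe sets against control stayed at 0 of 27 for 1 day and 14 days in every alternative run, and for 7 days except with 1 array left out, where they ran from 0 to 1. Immediately after noise, 1 was called with array weights. The F test called 1 with array weights, with quantile normalization and with a common 75th percentile, and 0 to 1 with 1 array left out. For 1 day against immediately, 2 were called with only the 2 groups in the fit and 0 to 1 with 1 array left out. For 7 days against 1 day, the count of 1 became 0 with sex as a term, without the trend, with array weights, with only the 2 groups in the fit and at an unadjusted p with a 1.5-fold change, and ran from 0 to 3 with 1 array left out. The cause of these changes was not tested. Fold changes were followed only for members with an unadjusted p under 0.05 in limma, for called list genes and for Nrtn. None of these changed sign. They were picked on the same arrays for lying away from 0, so this does not show that the members are stable. Female arrays alone could give no comparison with 1 day and no F test, since all 1-day mice were male. No member was called for sex itself (limma, adjusted p from 0.997). Sex could be compared only within the immediate, 7-day and 14-day groups, which held few animals of each sex. The absence of a call therefore does not show that sex had no part in these values. Numbers of replicates did not pair the arrays: deviations from group means correlated at -0.269 to 0.244 in 30 pairs of equal number (mean 0.0433) and at a mean of -0.0216 in 60 others. With the replicate number as a block, 1 member was called at 7 days against 1 day (Ngfr, adjusted p 0.0341) and 0 elsewhere, so the block changed no member's call. Counts for the gene lists, computed under alternatives added after seeing the data, stayed within 1.5 times in 1145 of 1302 combinations of list, comparison and alternative. Combinations with no call in either fit were counted among the 1145, so this share does not show that the list calls are stable. The count moved further in 157. The number of arrays, 3 a group, limits the precision.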
